A study of Bos taurus with 4 samples.

Results

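Gene expression in control bovine inner cell mass (ICM), the inner cluster of blastocyst cells that gives rise to the fetus, was compared with that in a pool of whole blastocysts on 2 of the 4 arrays of the series. These are the arrays labelled ICM-DMSO, replicates a and b, and all 12545 genes that the array names were tested. Embryos had been made from slaughterhouse oocytes matured and fertilised in vitro, and ICMs were cut out by hand with needles from blastocysts collected on day 9. Control embryos were cultured with DMSO, the solvent of the MEK inhibitor used on the other arrays of the series. The pool consisted of whole blastocysts, and the labels do not say whether these had been given DMSO. Each ICM sample was pooled from many embryos. Staining in the study found trophectoderm cells still attached to dissected ICMs. Both sides of the comparison are therefore mixtures of cell types.

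A blastocyst holds 3 kinds of cells. The trophectoderm (TE) is the outer epithelium that pumps fluid into the cavity and later forms most of the placenta, the epiblast is the pluripotent part of the ICM, and the hypoblast lines the ICM and forms the yolk sac. NANOG and SOX2 are transcription factors of the epiblast, GATA6 and SOX17 are factors of the hypoblast, and TFAP2A, TFAP2C, TEAD4 and GATA3 are factors of the TE. Because the pool contained ICM cells as well as TE cells, a ratio of ICM to pool is smaller than a ratio of ICM to TE would be. In such bulk samples more cells of a type and more RNA per cell cannot be told apart.

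Both samples of an array were labelled with different dyes. On replicate a the ICM sample carried Cy3 and on replicate b Cy5, with the pool in the other channel, and all ratios are given as log2 of ICM over pool, so that a value of 1 is 2-fold higher in ICM. The median spot signal of the ICM sample was 167 on replicate a and 175 on replicate b, against 24.3 and 24.5 for negative control spots, and 99.5% and 99.8% of probes lay above background. The number of arrays, 2, limits the precision of every value.

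Most genes lay close to the pool. The median absolute log2 ratio over genes was 0.07, the 99th percentile of the mean ratio was 0.62 and the first percentile was -0.52. Genes at 2-fold or more on both arrays numbered 11 above the pool, which is 0.0877% of all genes, and 0 below it. With a lower limit of 0.5 on the log2 scale, 141 genes lay above the pool on both arrays and 76 below.

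In the limma fit 0 of 12545 genes (0% in either direction) passed an adjusted p of 0.05, and the smallest adjusted p was 0.0626. An unadjusted p under 0.05 was found for 1182 genes with a higher value in ICM (9.42%) and for 1379 with a lower value (11%). These shares are the background against which the members of each gene list are read. They rose with brightness. In the dimmest of 4 equal groups of genes they were 2.52% and 3.38%, and in the brightest 15.4% and 17.7%. Gene lists were not matched for brightness, so for lists of bright genes the shares over all genes are too low a background. Fits with other settings called between 0 and 410 genes above the pool and between 0 and 402 below it. No gene is therefore said to have risen or fallen, and p-values below are unadjusted values of this fit unless named as adjusted. Values are those of the brightest probe. Of 180 genes followed, 143 had over 1 probe, and 87 of these were over 1.5 times smaller with the mean of their probes. With the correction set on the mean of each spot's local background in place of its median (the background mean) 25 of 180 were over 1.5 times smaller, all in the 2 dimmer of 4 equal groups by brightness.

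The arrays agreed in sign for 7341 genes, with 29.7% of all genes above the pool on both arrays and 28.8% below on both, and the ratios of replicates a and b correlated with r = 0.28 over genes, which are not independent replicates. Both measures differed with brightness, and not alike. In the dimmest of 4 equal groups of genes r was 0.34, in the next 0.52, in the third 0.58, and in the brightest, of 3136 genes, 0.05. The share of genes with the same sign was 51.8%, 57.9%, 63.5% and 60.9% in the same order, so that the brightest group agreed in sign more often than the dimmest. At 2-fold or more on both arrays, 25 genes lay on opposite sides, and 25 of 25 were higher in the Cy5 channel on both arrays, whichever sample that channel held. Saturated spots numbered 68 in the Cy5 channel and 3 in the Cy3 channel on replicate a, and 55 and 0 on replicate b, and their part in this was not tested. The fit contains a dye term, which removes from the residual the difference between replicates a and b that both groups share. A gene on opposite sides of the pool can therefore have a small p and a small SE. The SE given for a gene is thus not the spread of its 2 control values. Of the 1182 genes with a p under 0.05 and a positive mean, 1134 lay above the pool on both arrays, and of the 1379 with a negative mean, 1352 lay below on both. Both values are given for each gene named below, and those with opposite signs are to be read from them.

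**Figure D1:**
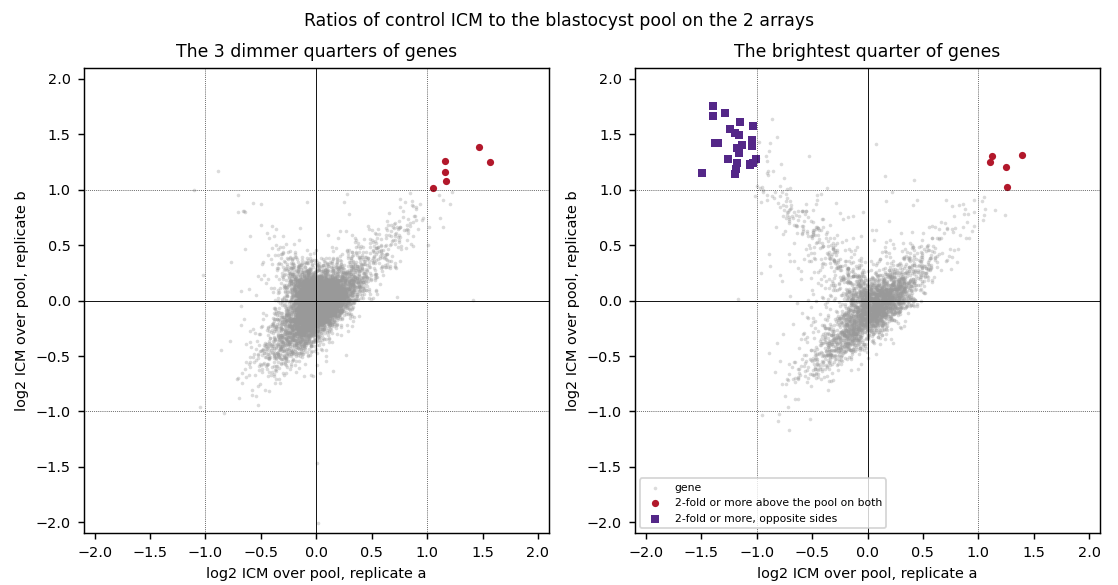
Log2 ratio of control ICM to the pool on replicate a (x axis) against replicate b (y axis), 1 point a gene, for the 3 dimmer groups of genes (left) and the brightest 3136 genes (right). Red points are the 11 genes at 2-fold or more above the pool on both arrays and purple squares the 25 genes at 2-fold or more on opposite sides, all in the upper left of the right panel; dotted lines mark 2-fold.

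The 4 genes given as markers of the ICM, NANOG, SOX2, ID1 and PRDM14, lay above the pool on both arrays. NANOG had a spot signal of 13606 in ICM and 5025 in the pool on replicate a and of 13460 and 5049 on replicate b, which gave log2 ratios of 1.39 and 1.32 (mean 1.35, SE 0.050, limma adjusted p = 0.0626). SOX2 had signals of 5023 and 2208 on replicate a and of 4308 and 2365 on replicate b, with log2 ratios of 1.03 and 0.90 (mean 0.97, SE 0.065, limma adjusted p = 0.0626). In both genes the ICM signal exceeded that of the pool in both dye orientations. ID1, a target of BMP signalling, had log2 ratios of 1.14 and 0.91 (mean 1.03, SE 0.080, limma adjusted p = 0.0629), from signals of 1332 and 503 on replicate a and 989 and 543 on replicate b. PRDM14, a transcription factor that represses differentiation genes in pluripotent cells of the mouse, had the smallest ratio of these 4 genes, 0.64 and 0.42 (mean 0.53, SE 0.069, limma adjusted p = 0.0759).

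Probes of the same gene differed in size more than in sign. The 3 NANOG probes had mean log2 ratios of 1.35, 0.93 and 0.30 in order of brightness, and the 2 ID1 probes 1.03 and 0.32. The 5 SOX2 probes ran from 0.02 to 1.40, with the brightest at 0.97 and the second brightest at 1.40. All of these probes had a positive mean, and 1 SOX2 probe lay on opposite sides of the pool on the 2 arrays (-0.11 and 0.15). PRDM14 was represented by 1 probe.

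Of 21 measured pluripotency and epiblast genes, 9 lay above the pool on both arrays, 5 below on both and 7 on opposite sides. A p under 0.05 was found for 6 with a positive and 1 with a negative mean, and the median log2 ratio was 0.07, against 0.01 for all genes. The median rested on replicate b (0.14) more than on replicate a (0.01). KIT, the receptor for stem cell factor, had log2 ratios of 1.10 and 1.25 (mean 1.18, SE 0.070) and ZIC2, a zinc finger transcription factor, 0.88 and 0.71 (mean 0.79, SE 0.19). TBX3, a transcription factor used by mouse embryonic stem cells, lay below the pool with -0.23 and -0.28, and the FGF receptor gene FGFR2 had -0.13 and -0.14, while the mean of its 7 probes was 0.09. POU5F1 was named by no probe and was not analysed here.

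The 11 genes at 2-fold or more above the pool on both arrays included NANOG and KIT. FLRT3, which encodes a transmembrane adhesion protein, had the highest mean ratio in this fit with 1.47 and 1.38 (mean 1.43, SE 0.11), though with the background mean it was 1.16, below NANOG at 1.34. It was followed by SERPINA5, a serine protease inhibitor gene, with 1.57 and 1.25 (mean 1.41, SE 0.14). CAV1, which encodes the main protein of caveolae, had 1.25 and 1.21, and LAPTM4B, a gene for a lysosomal membrane protein, 1.13 and 1.31. RALGPS2, an exchange factor for Ral GTPases, had 1.16 and 1.26, and ADD3, which encodes a protein of the membrane skeleton, 1.16 and 1.16. FABP3, a fatty acid binding protein gene, had 1.26 and 1.02, the serine protease gene KLK7 1.17 and 1.08, and FST, which encodes the activin inhibitor follistatin, 1.06 and 1.01. The brightest probe was the most distant from the pool in several of these genes. FLRT3 had further probes at 0.61 and 0.08, CAV1 had 4 between 0.05 and 0.63, and KIT had 1 at 0.06. The other RALGPS2 probes lay at 0.12 and 0.03 and those of ADD3 between -0.02 and 0.31, so that the mean of probes was 0.45 for RALGPS2, 0.32 for ADD3 and 0.62 for KIT. The 4 probes of LAPTM4B lay between 0.82 and 1.27 and those of FABP3 between 0.43 and 1.14. In the brightest probes the replicates differed by much less than their distance from the pool, with the widest difference in SERPINA5.

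No gene reached 2-fold below the pool on both arrays, so the lowest genes were named after their values were seen, apart from those that the gene lists contain. CELF3, an RNA-binding protein gene, was lowest with -1.05 and -0.96 (mean -1.01, SE 0.080), from a dim spot whose ratio was -0.52 with the background mean, against -0.96 for PKP1. PKP1, which encodes the desmosome protein plakophilin, had -0.95 and -1.03 (mean -0.99, SE 0.051), from signals of 3181 in ICM and 5728 in the pool on replicate a and 3075 and 6340 on replicate b. The actin-binding calponin gene CNN2 had -0.80 and -1.08, the glycolytic regulator gene PFKFB3 -0.71 and -1.17, the claudin gene CLDN4 -0.83 and -1.01, and GNPDA2, an enzyme of amino sugar metabolism, -0.80 and -1.02. DDB1, a ubiquitin ligase subunit gene, had -0.72 and -0.96, the metallothionein gene MT1E -0.74 and -0.86, and CRYAB, a small heat shock protein gene, -0.70 and -0.88. The brightest probes of these genes stayed below the pool in both dye orientations. Other probes were nearer to it, with means of -0.05 and -0.21 for PFKFB3, 0.15 for GNPDA2, -0.40 and -0.00 for MT1E and -0.22 for CRYAB, while the second probe of DDB1 lay at -0.82.

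**Figure D2:**
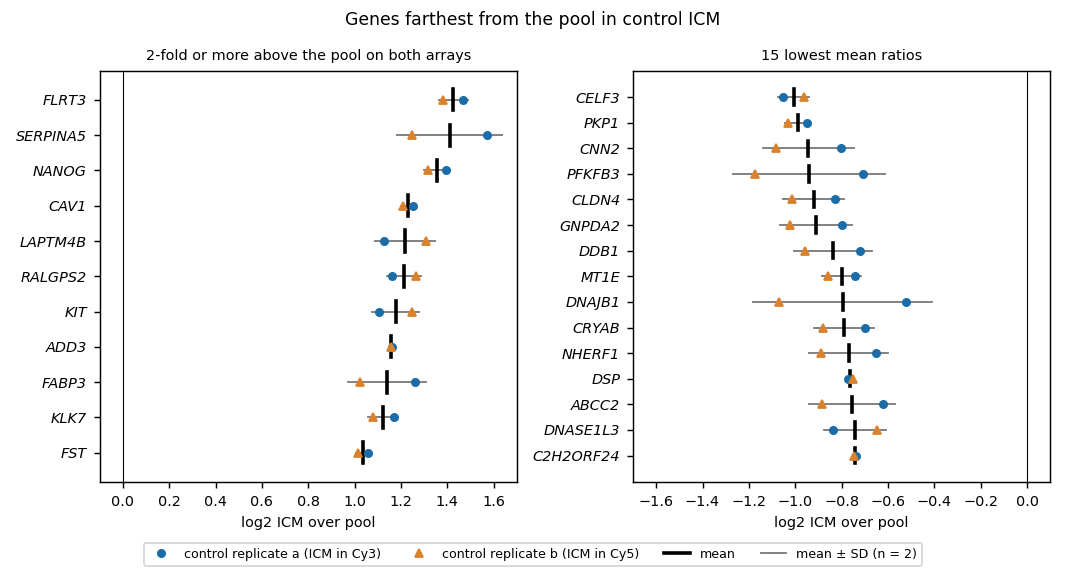
Log2 ratio of control ICM to the pool (x axis) for the 11 genes at 2-fold or more above the pool on both arrays (left) and the 15 genes of lowest mean ratio with the same sign on both arrays (right). Circles are replicate a, triangles replicate b, black bars the mean and grey lines the mean ± SD (n = 2); no gene crosses 0.

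The hypoblast list ran from FLRT3 to DAB2, and the ratios of its defining transcription factors, some from dim probes, lay close to 0. Of 35 measured genes, 16 lay above the pool on both arrays and 7 below, and a p under 0.05 was found for 9 with a positive and 3 with a negative mean (median 0.04). Besides FLRT3 and FST, the basement membrane gene NID1 had log2 ratios of 0.96 and 0.91 (mean 0.93, SE 0.10), the apolipoprotein gene APOA1 1.04 and 0.73, the collagen chaperone gene SERPINH1 0.95 and 0.73, and the BMP ligand gene BMP2 0.39 and 0.44. For NID1 the second brightest probe had a mean of 0.86 and the 3 dimmest lay between -0.02 and 0.01.

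SOX17 had log2 ratios of 0.11 and 0.07 (limma adjusted p = 0.532), HNF4A 0.04 and -0.00, and GATA4 -0.18 and 0.22. The HNF4A and SOX17 probes were dim, with mean log2 intensities of 7.40 and 7.35. They lay in the dimmest of the 4 groups of genes, where the median absolute log2 ratio was 0.03. Values near 0 at this brightness do not show equal levels in ICM and pool. On its other arrays the study listed HNF4A among the genes most above TE in ICM. GATA6 had -0.19 and -0.12 (mean -0.15, limma adjusted p = 0.306) from its brighter probe and a mean of 0.06 from the other. In the study's staining all cells of the dissected TE carried GATA6 protein, so this ratio is not a value of the hypoblast alone. At the low end DAB2, an endocytic adaptor gene, had -0.61 and -0.67, the laminin gene LAMC1 -0.35 and -0.59, and LRP2, which encodes the endocytic receptor megalin, -0.67 and -0.21. DAB2 was also on the TE list.

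Of 39 measured TE genes, 25 had a negative mean. In all, 19 lay below the pool on both arrays, 7 above and 13 on opposite sides, and a p under 0.05 was found for 13 with a negative mean (33.3%) and 5 with a positive mean (12.8%). The median was -0.03 and the lowest value -0.77. TFAP2A had log2 ratios of -0.57 and -0.59 (mean -0.58, SE 0.055), GATA2 -0.79 and -0.54 (mean -0.67, SE 0.13), the epithelial factor gene GRHL1 -0.62 and -0.71 (mean -0.67, SE 0.065), and NHERF1, a scaffold protein of the apical membrane, -0.65 and -0.89 (mean -0.77, SE 0.065). TEAD4 had -0.22 and -0.27. In their brightest probes these 5 genes were below 0 on both arrays and, TEAD4 aside, below -0.5. Other probes were nearer to the pool. The mean of probes was -0.31 for TFAP2A, -0.32 for GATA2, -0.26 for GRHL1, -0.39 for NHERF1 and -0.12 for TEAD4.

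GATA3 lay at 0.17 and -0.02 on opposite sides of the pool (limma adjusted p = 0.798). TFAP2C was represented by a probe among the brightest of the array, which had -1.40 and 1.75, on opposite sides of the pool, and its 2 dimmer probes had means of -0.15 and -0.07. FABP3, on this list as a placental gene, was 2-fold above the pool as given above, ARID3A, a DNA-binding factor gene, had 0.62 and 0.30, and the keratin gene KRT7 0.51 and 0.38. CDX2, KRT8 and KRT18 were named by no probe and were not analysed here.

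Among 25 measured genes of the ruminant placenta, 12 lay below the pool on both arrays and 4 above, with a p under 0.05 for 7 with a negative and 1 with a positive mean (median -0.03). The lowest of this placental list were enzymes of prostaglandin and steroid synthesis. On another list, of 19 steroid hormone synthesis and prostaglandin genes, 3 had a p under 0.05 with a positive mean and 4 with a negative mean (median 0.02). PTGES, the prostaglandin E synthase gene, had -0.48 and -0.59 (mean -0.54, SE 0.050), the aldose reductase AKR1B1 -0.35 and -0.24, and the steroid dehydrogenase gene HSD3B1 -0.17 and -0.29. The other PTGES probes had means of 0.07 and -0.51, those of HSD3B1 0.20 and -0.12, and all AKR1B1 probes lay between -0.48 and -0.30. Pregnancy-associated glycoprotein genes, secreted by TE and its placental derivatives, share much sequence, and their probes may detect more than 1 member. PAG2 had -0.11 and -0.30, and PAG9 0.06 and 0.32. PAG12, named after its values were seen, lay at -1.19 and 1.19, on opposite sides.

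**Figure D3:**
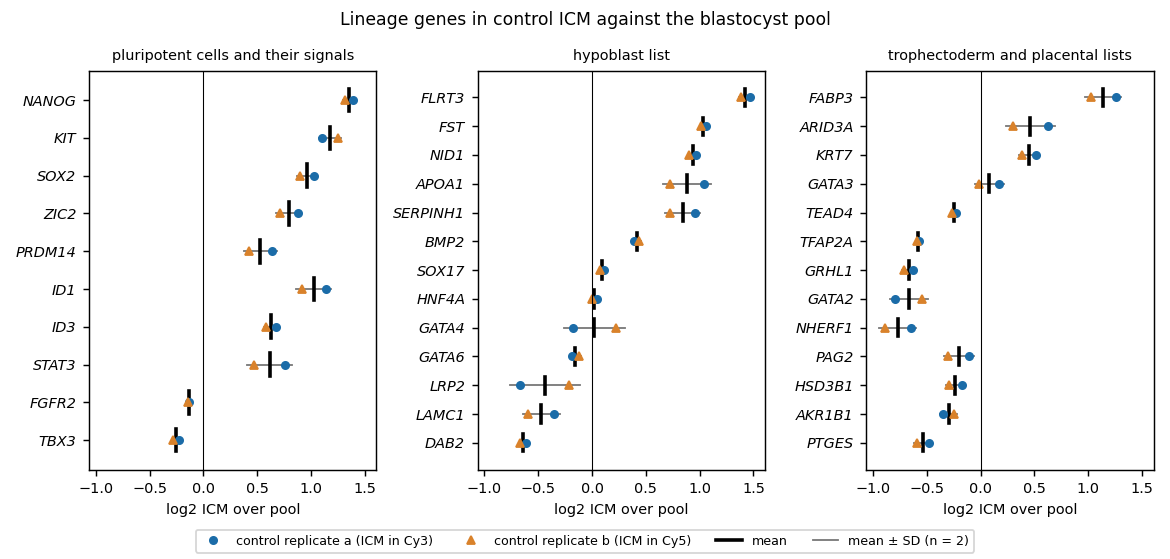
Log2 ratio of control ICM to the pool (x axis) for genes of pluripotent cells and their signals (left), of the hypoblast list (middle) and of the trophectoderm and placental lists (right). Circles are replicate a, triangles replicate b, black bars the mean and grey lines the mean ± SD (n = 2); NANOG and FLRT3 lie at mean values of 1.35 and 1.43, and NHERF1 at -0.77.

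Among the BMP genes farthest from the pool, ID1, ID3, FST, BMP2 and NOG lay above it and SMAD1, SMAD3 and BAMBI below. ID proteins are inhibitors of differentiation factors and direct BMP targets, noggin (NOG) and follistatin bind the ligands, and SMAD1 and SMAD3 carry the signals of BMP and activin into the nucleus. Beside ID1, ID3 had log2 ratios of 0.68 and 0.58 (mean 0.63, SE 0.051), and NOG 0.35 and 0.21. These probes were dim, and with the background mean ID3 was 0.34, BMP2 0.17 and NOG 0.08. SMAD1 had -0.38 and -0.32, SMAD3 -0.35 and -0.17, and the decoy receptor gene BAMBI -0.08 and -0.35. Of 29 measured members, a p under 0.05 was found for 5 with a positive mean and 3 with a negative mean (median 0.02).

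Of 30 WNT genes, 7 had a p under 0.05 with a positive mean (23.3%) and 0 with a negative mean, and the median was 0.00. The highest means were small, with the secreted WNT inhibitor SFRP2 at 0.32 and 0.38, and the nuclear factors of the pathway TCF7 and TCF7L2 at 0.30 and 0.35 and at 0.35 and 0.19. With the background mean SFRP2 was 0.11. CTNNB1, which encodes beta-catenin, lay at -0.20 and -0.11 (limma adjusted p = 0.674).

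FGF and receptor tyrosine kinase genes were evenly split, with 6 of 40 at a p under 0.05 in each direction. FGFR4 had 0.82 and 0.65 (mean 0.73, SE 0.068), and SPRY2 and DUSP4, feedback inhibitors that the MAPK pathway itself induces, 0.65 and 0.68 and 0.39 and 0.27. The dimmer FGFR4 probes had means of 0.01 and 0.05. With the background mean DUSP4 was 0.16, and its other probe had a mean of -0.08, whereas the second SPRY2 probe had 0.54. KIT, given above, was the highest of this list. Other receptors were among the lowest, the VEGF receptor FLT1 with -0.63 and -0.55, the HGF receptor MET with -0.41 and -0.54 and the ephrin receptor EPHA1 with -0.22 and -0.47, together with the ligand gene VEGFA at -0.50 and -0.24. The dimmer FLT1 probes had means of -0.02 and 0.05. PDGFB had -0.98 and 1.43, and its mean is one of values on opposite sides (limma adjusted p = 0.151). LIF and STAT3 signalling supports pluripotency in the mouse. Of its 12 measured genes, 2 had a p under 0.05 with a positive mean and 2 with a negative mean (median 0.01). STAT3 had 0.76 and 0.47, IL6 -0.67 and -0.66, and the feedback inhibitor SOCS2 -0.38 and -0.49. The mean of the 6 STAT3 probes was 0.15.

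The Hippo pathway, which in the mouse separates outer from inner cells through the TEAD factors, lay below the pool for 9 of 19 measured genes on both arrays and above for 4. A p under 0.05 was found for 8 with a negative mean (42.1%) and 3 with a positive mean (15.8%), and the median was -0.07 (-0.20 on replicate a and -0.07 on replicate b). The kinase gene LATS2 had -0.35 and -0.48, its upstream regulator NF2 -0.41 and -0.38, and CCN2, a target of TEAD factors, -0.33 and -0.49. The TEAD gene TEAD2 had 0.43 and 0.33, the TEAD cofactor VGLL1 0.37 and 0.41, and the scaffold gene AMOTL1 0.53 and 0.34.

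The 5 lowest genes of the list of adherens junctions and desmosomes all encode desmosome proteins. Desmosomes link cells to each other through cadherins of the desmoglein and desmocollin families, which plakoglobin, plakophilins and desmoplakin tie to keratin filaments. PKP1 is given above, and desmoplakin (DSP) had log2 ratios of -0.77 and -0.75, plakoglobin (JUP) -0.56 and -0.64, desmoglein DSG2 -0.58 and -0.30 and desmocollin DSC2 -0.49 and -0.33. DSG1, another desmoglein, lay at 0.32 and 0.10. The 5 dimmer probes of DSP had means between -0.07 and 0.08. The dimmer probes of JUP lay at -0.07 and -0.07 and those of DSG2 at -0.02 and -0.00. For PKP1 they lay at -0.93 and -0.00, and the second DSC2 probe lay at -0.38. Of 19 measured genes of adherens junctions and desmosomes, a p under 0.05 was found for 6 with a negative mean (31.6%) and 1 with a positive mean (median -0.04).

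Tight junction and polarity genes were split, with a p under 0.05 for 8 of 26 with a negative and 5 with a positive mean. CLDN4 was the lowest, with its second probe at 0.08, followed by EZR, which encodes ezrin of microvilli, at -0.43 and -0.61, CLDN1 at -0.40 and -0.43 and the polarity gene SCRIB at -0.26 and -0.40. Above the pool stood the junctional adhesion gene JAM2 at 0.75 and 0.59, the atypical protein kinase C gene PRKCI at 0.50 and 0.61 and occludin (OCLN) at 0.47 and 0.20, whose 3 dimmer probes gave lower values, so that its mean over probes was -0.01.

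Among 47 genes of the extracellular matrix and mesenchyme, a p under 0.05 was found for 7 with a positive and 6 with a negative mean (median -0.01). Vimentin (VIM), an intermediate filament gene, had 0.71 and 0.60, and its second brightest probe a mean of 0.68, while another lay at -0.19. The microfibril gene MFAP5 had 0.63 and 0.72 and the thrombospondin THBS4 0.56 and 0.48. Actin-binding and matrix genes at the other end were CNN2, smooth muscle actin (ACTA2) at -0.51 and -0.45 and LOXL2, a collagen cross-linking enzyme, at -0.15 and -0.51. Annexins, which bind membranes in a calcium-dependent way, lay below the pool in their mean for 8 of 8 genes, with 4 at a p under 0.05 and ANXA3 lowest at -0.59 and -0.53. Of 15 S100 calcium-binding genes 6 had a p under 0.05 with a negative mean, S100A14 lowest at -0.76 and -0.30, while S100B lay at 0.56 and 0.49. The 33 collagens had medians of -0.00 and -0.03 on the 2 arrays, the 37 keratins -0.00 and -0.00 and the 21 integrins -0.01 and 0.06.

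Most genes of the lysosome and of sterol synthesis lay below the pool. Lysosomal genes lay below the pool on both arrays for 23 of 32 measured genes, and above for 4, with a p under 0.05 for 12 with a negative mean (37.5%) and 2 with a positive mean, and a median of -0.16. The cholesterol exporter NPC1 had -0.46 and -0.61, the galactosidase gene GLB1 -0.40 and -0.38, the membrane protein LAMP1 -0.27 and -0.43 and LAPTM4A -0.81 and -0.38, whereas its relative LAPTM4B was among the 11 highest genes. The vacuolar ATPase, the proton pump that acidifies lysosomes, lay below on both arrays for 15 of 21 subunit genes, with 10 at a p under 0.05 and a negative mean (47.6%), 0 with a positive mean and a median of -0.17. Its subunit ATP6V0A4 had -0.37 and -0.68, ATP6V0C -0.31 and -0.71, ATP6V1B2 -0.44 and -0.48 and ATP6V1A -0.42 and -0.46. ATP6V0D1 and the accessory gene ATP6AP1 stood on both lists.

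Of 19 sterol synthesis genes, 12 lay below the pool on both arrays and 2 above, with a p under 0.05 for 7 with a negative mean (36.8%) and 0 with a positive mean, and the median was -0.17. The isomerase gene IDI1 had -0.35 and -0.34, HSD17B7 -0.39 and -0.29 and the sterol carrier STARD4 -0.22 and -0.39, while EBP, another isomerase of the pathway, lay at 0.39 and 0.01. Fatty acid genes were split, with a p under 0.05 for 10 of 40 with a negative and 6 with a positive mean (median -0.03). The desaturase gene SCD5 at 0.87 and 0.86 and PLIN2, a coat protein of lipid droplets, at 0.74 and 0.72 stood beside FABP3, and the nuclear receptor PPARD at -0.53 and -0.77, the acyl-CoA synthetases ACSL4 and ACSL6 at -0.59 and -0.42 and at -0.44 and -0.47 and the fatty acid carrier CD36 at -0.40 and -0.47 lay below.

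Of 37 genes of glycolysis and the hypoxia response, 8 had a p under 0.05 in each direction. PFKFB4 had 0.63 and 0.42 and the phosphofructokinase PFKM 0.68 and 0.54, and PFKFB3, a gene of the same family as PFKFB4, was among the lowest genes by its brightest probe. The transketolase-like gene TKTL1 had 0.61 and 0.47 and the mitochondrial adenylate kinase AK4 1.05 and 0.77. Lactate dehydrogenase LDHA had -0.52 and -0.66, hexokinase HK2 -0.39 and -0.47 and the hypoxia-inducible factor EPAS1 -0.66 and -0.70. The dimmer EPAS1 probes had means of 0.00 and -0.01. Among 264 solute carriers, 28 had a p under 0.05 with a positive mean (10.6%) and 31 with a negative mean (11.7%), near the background. The glutamate transporter SLC1A3 (0.90 and 0.83) and the nucleotide sugar transporter SLC35D2 (0.75 and 0.91) were the highest, and the ascorbate transporter SLC23A1 (-0.86 and -0.45) and SLC38A6 (-0.52 and -0.59) the lowest. The other SLC35D2 probes had means of -0.22 and 0.52, and the second SLC23A1 probe had -0.06.

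**Figure D4:**
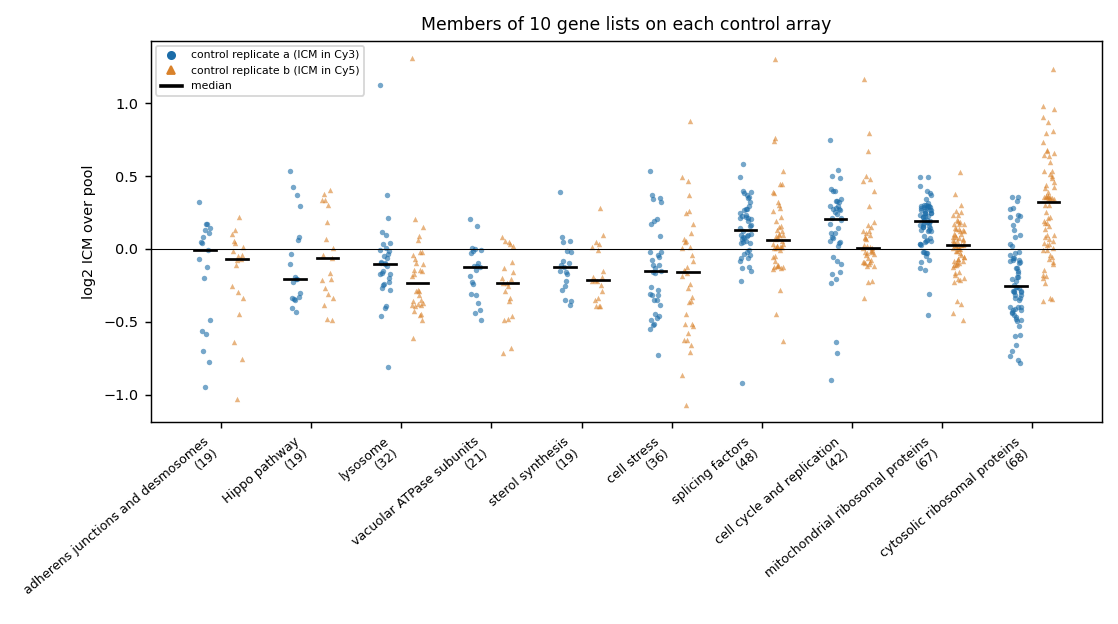
Log2 ratio of control ICM to the pool (y axis) of every measured member of 10 gene lists (x axis, number of genes in parentheses), with replicate a as circles, replicate b as triangles and the median of each as a bar. Lysosome, vacuolar ATPase, sterol synthesis and cell stress genes have medians below 0 on both arrays, and cytosolic ribosomal protein genes have medians of -0.26 on replicate a and 0.32 on replicate b.

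A positive mean was found for 53.3% of all genes. Of 48 splicing factors, 38 had a positive mean (79.2%), 27 lay above the pool on both arrays and 5 below, and a p under 0.05 was found for 17 with a positive mean (35.4%) and 1 with a negative mean. Their median was 0.11, so that single genes differed little. U2AF1 had 0.49 and 0.39, SRSF1 0.35 and 0.44 and HNRNPL 0.37 and 0.30, and PRPF19 was lowest at -0.15 and -0.63. Of 42 cell cycle and replication genes, 32 had a positive mean, 20 lay above the pool on both arrays and 15 on opposite sides, with a p under 0.05 for 12 (28.6%) against 3 with a negative mean, and a median of 0.12. That median came from replicate a (0.20) rather than replicate b (0.01). The clamp loader subunit RFC1 had 0.75 and 0.47, the origin recognition gene ORC1 0.54 and 0.48, the sliding clamp PCNA 0.40 and 0.50 and topoisomerase TOP2A 0.34 and 0.40. Cyclin CCND2 had -0.24 and -0.34 and the cell cycle inhibitors CDKN1C and CDKN1A -0.21 and -0.23 and -0.16 and -0.22.

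Chromatin genes included 9 of 43 with a p under 0.05 and a positive mean (20.9%) and 1 with a negative mean, MBD1 at -0.17 and -0.35. The helicase gene HELLS had 0.66 and 0.71, the remodeller ATRX 0.54 and 0.60, and the high mobility group genes HMGB1 and HMGB2 0.45 and 0.91 and 0.41 and 0.49. The 6 probes of HMGB1 had means from 0.38 to 0.68. TET1, a dioxygenase that starts DNA demethylation, lay at -0.36 and -0.27 (limma adjusted p = 0.352). Of 15 histone genes 5 had a p under 0.05 with a positive mean, among them the variant genes H2AZ2 at 0.42 and 0.41 and H3-3A at 0.16 and 0.90. The 10 probes of H3-3A had means from -0.12 to 0.62, with a mean over probes of 0.22.

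Genes of the mitochondrion had medians above 0 on both arrays, close to 0 on replicate b. Mitochondrial ribosomal protein genes had medians of 0.19 on replicate a and 0.03 on replicate b, with 36 of 67 above the pool on both arrays, and subunits of oxidative phosphorylation 0.15 and 0.01, with 30 of 79 above on both. The highest were MRPS15 at 0.49 and 0.23 and NDUFB1 at 0.49 and 0.16. Cytosolic ribosomal protein genes, which are among the brightest of the array, opposed each other between arrays, with medians of -0.26 and 0.32 and 54 of 68 genes on opposite sides. RPLP1 was the highest by mean, with 0.22 and 0.98 from a spot saturated in the pool on replicate a, and RPS16, named after its values were seen, had -0.78 and 1.24. Ratios of this group were not read further. Proteasome subunits had medians of 0.03 and -0.09.

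Most genes of the cell stress list lay below the pool. Of 36 measured, 20 lay below on both arrays and 6 above, with a p under 0.05 for 17 with a negative mean (47.2%) and 6 with a positive mean (16.7%) and medians of -0.15 and -0.16 on the 2 arrays. The stress-induced transcription factor ATF3 had -0.73 and -0.71 (mean -0.72, SE 0.056), the pseudokinase TRIB3 -0.55 and -0.86, the growth arrest gene GADD45A -0.46 and -0.66 and the chaperone gene DNAJB1 -0.52 and -1.07. The small heat shock protein HSPB1 was an exception at 0.53 and 0.50. Of 24 apoptosis genes 11 lay below the pool on both arrays and 2 above, with a p under 0.05 for 5 with a negative mean and 0 with a positive mean. Those 5 include the p53 inhibitor MDM2 (-0.32 and -0.49) and the survival genes BCL2L1 (-0.33 and -0.41) and BIRC2 (-0.31 and -0.37), whose products restrain cell death. The highest mean belonged to APAF1, which lay on opposite sides (-0.98 and 1.29).

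Of 36 interferon-stimulated genes, 3 had a p under 0.05 with a positive mean and 6 with a negative mean. HERC5 had 0.79 and 0.64, the interferon regulatory factor IRF1 0.69 and 0.66 (0.36 with the background mean) and IFIT2 0.36 and 0.55, and the antiviral gene MX1 -0.51 and -0.75 and CMPK2 -0.32 and -0.43. Among 13 imprinted genes, those that restrain or shape placental growth in the mouse were lowest, ASCL2 at -0.37 and -0.63 and PHLDA2 at -0.37 and -0.35, and SNRPN was highest at 0.32 and 0.20. Of 21 measured homeobox genes of the OTX, MEIS, PBX, PITX, LHX, MSX and DLX families, MEIS2 at 0.86 and 0.89 and LHX2 at -0.23 and -0.50 stood at the ends. In each direction 1 of these 21 had a p under 0.05.

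**Figure D5:**
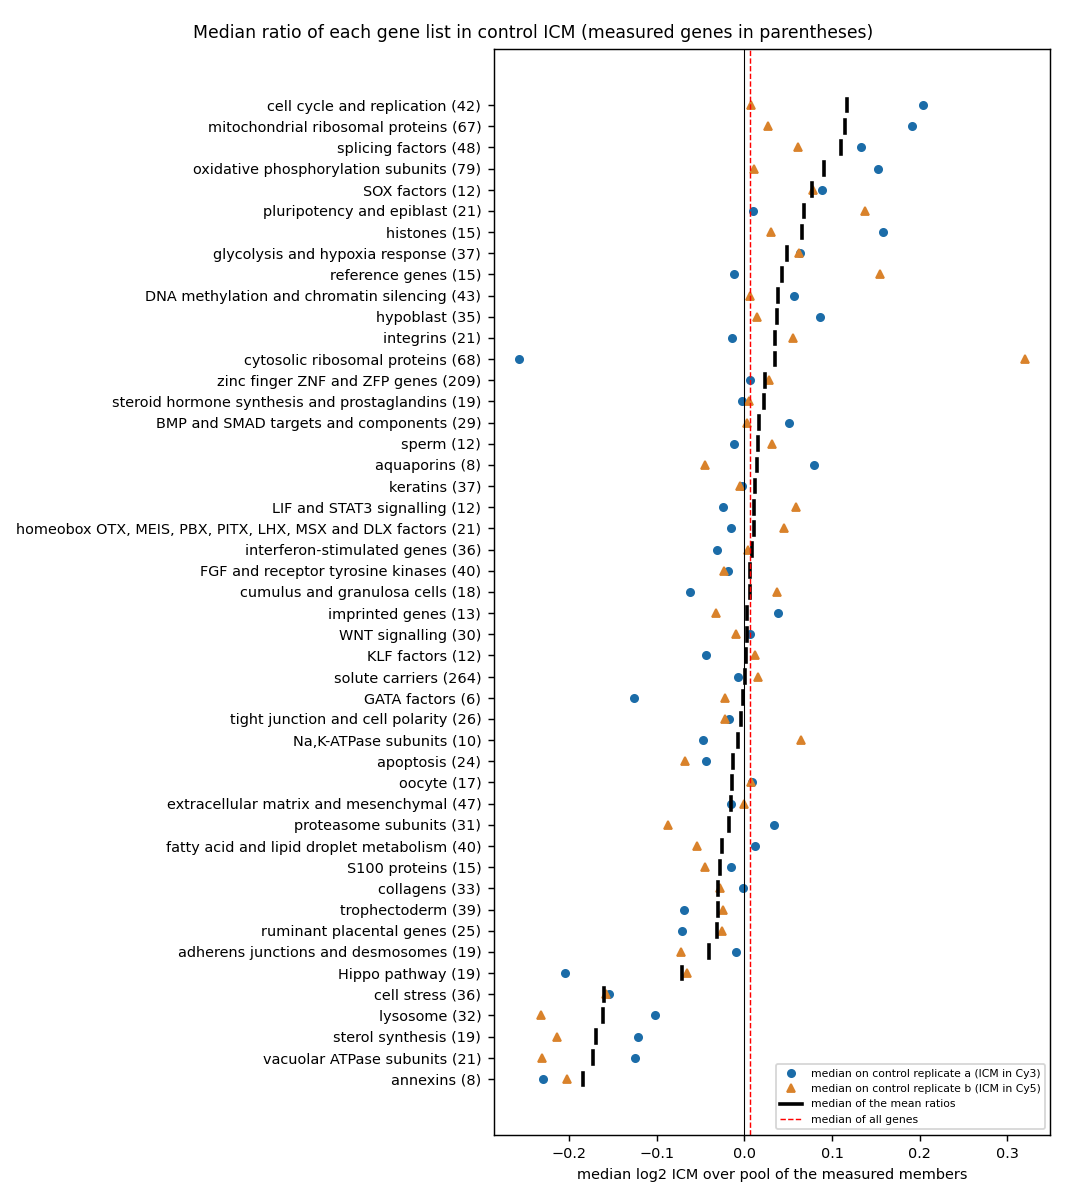
Median log2 ratio of control ICM to the pool (x axis) for each gene list with at least 5 measured genes (y axis, number of genes in parentheses), with replicate a as circles, replicate b as triangles, black bars for the median of the mean ratios and a dashed line for the median of all genes, 0.01. Splicing factors have medians of 0.13 and 0.06 and annexins of -0.23 and -0.20.

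Markers of cumulus cells, oocytes and sperm, which could be carried over from fertilisation, had medians near 0. Cumulus and granulosa genes had a median of 0.01, with 1 of 18 at a p under 0.05 and a positive mean and 4 with a negative mean. The gap junction gene GJA1, which embryos express too, had 0.63 and 0.59, and the FSH receptor FSHR -0.19 and -0.64. Of 17 oocyte genes 1 had a p under 0.05 in each direction, TLE6 at 0.40 and 0.27 and DAZL at -0.47 and -0.56. Among 12 sperm genes the transition protein TNP1 at 0.49 and 0.49 and the protamine PRM2 at 0.38 and 0.22 had a p under 0.05. The part of such cells in the results was not tested.

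Genes commonly used as references in quantitative PCR were not all at the pool's level. YWHAZ lay at -0.07 and 0.21 (limma adjusted p = 0.744), RPL15 at 0.33 and 0.15 (limma adjusted p = 0.264) and the brightest EEF2 probe at -0.96 and 0.25, on opposite sides. All 7 EEF2 probes had a negative mean, from -1.32 to -0.18, and the dimmer ones lay below the pool on both arrays. Actin ACTB had 0.85 and 0.68 (mean 0.76, SE 0.097), with its other probes at 0.46 and -0.08. SDHA was named by no probe and was not analysed here.

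A list that the study had drawn from other arrays, of dissected ICM against TE, was set against these ratios. Of 273 measured genes listed as higher in ICM, 225 lay above the pool on both arrays and 17 below, and 202 had a p under 0.05 with a positive mean (74%), with medians of 0.53 and 0.44 on the 2 arrays. It contained 10 of the 11 genes at 2-fold above the pool, and ADD3 was the exception. Of 67 listed as higher in TE, 56 lay below on both arrays, 47 had a p under 0.05 with a negative mean (70.1%) and the medians were -0.31 and -0.34. The highest of these 67 was UGCG, the enzyme that starts glycosphingolipid synthesis, at 0.71 and 0.91.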

How the data were processed

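Per the labels and the study's methods, doubly amplified RNA was labelled with Cy3 or Cy5, hybridised to bovine whole genome oligonucleotide arrays and quantified with Imagene. The deposited scanner files give each spot's mean intensity and local background in both channels, with no normalization. The authors also deposited log2 ratios, made by loess and a correction of dye bias for each gene, which were used as an alternative. Regressing raw log2 Cy5 over Cy3 on their columns gave slopes of -1.04 (replicate a) and 1.05 (replicate b), so they are log2 of ICM over pool. Their medians were 0.0041 and 0.0098, and how they were centred stays unknown.

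R 4.3.3 and limma 3.58.1 were used. Mean intensities were corrected by normexp (background median, offset 50), since the background mean of a spot reached 22576, and normalized by loess within arrays, with the 1567 control spots at weight 0. The offset makes log2 ratios of dim probes smaller. The 4 arrays were fitted with terms for group and dye (residual degrees of freedom 1, prior 2.90), and the control ratio was tested against 0, two-sided, with Benjamini-Hochberg adjustment over 43653 probes. The MAPK-inhibited arrays served only to estimate the spread and the dye effect. The test sets 2 ICM samples against 1 pool and leaves out the pool's own spread. The study describes 2 biological replicates of each sample for its other arrays. Whether replicates a and b are separate cultures is not given in the labels, and the spread behind the p-values may be technical.

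The platform annotation named 27952 probes with 1 gene and 15701 with none, and symbols of 1831 were updated through the RefSeq table of ARS-UCD2.0. A gene was represented by its brightest probe. Negative controls were the 757 spots of 2 much-repeated control probes, and a probe above the 95th percentile of these in a channel was above background.

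Members and lists were chosen with earlier results of these data known, and lists were described by counts and medians with no test of the list. Named genes were to be the 15 highest and 15 lowest past the threshold, filled from those at 2-fold on both arrays, the 5 highest and 5 lowest of each list, the given markers, the study's quantitative PCR genes and defining markers. Alternatives changed the background correction, normalization, source of the values, probe choice, filter, prior variance, dye term and arrays. The steps were tested on simulated arrays.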

Additional observations from a re-analysis of the deposited data

How the results depend on the processing

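The number of genes past an adjusted p of 0.05 depended on the setting. Above and below the pool it was 236 and 174 with no background correction, 410 and 402 in the log2 ratios that the authors deposited, 85 and 45 with the mean of probes, 73 and 29 with the control arrays alone, and 185 and 104 with an intensity trend. It stayed at 0 and 0 with the background mean, with median centring and with probes above background only. Leaving out 1 array in turn gave between 0 and 73 genes above and between 0 and 29 below. Without either control array, where the lone array is assumed to vary like the others, both counts were 0, and without either MAPK-inhibited array the fit was that of the control arrays alone. Settings chosen after seeing the data gave 328 and 333 at a threshold of 0.10, and 236 and 163 with no background correction and an intensity trend. The genes at 2-fold above the pool on both arrays numbered 7 with the background mean and 3 with the mean of probes, and 1 lay 2-fold below both in the uncorrected intensities and in the values that the authors processed. The cause was not tested.

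Dye orientation goes with the replicate letter, so the dye term serves as the replicate block. Deviations of arrays with the same letter correlated at 0.45 over probes, and without the block 0 genes passed in either direction.

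Of 180 genes followed, signs were reversed with the mean of probes in FGFR2 (0.086), TFAP2C (-0.013), PAG12 (-0.081) and OCLN (-0.0065), with the authors' values in PAG12 (-0.027), without control replicate a in HNF4A (-0.00073, against 0.042 without control replicate b), GATA3 (-0.016 against 0.17) and EEF2 (0.25 against -0.96), and without control replicate b in GATA4 (-0.18, against 0.22 without control replicate a), TFAP2C (-1.40 against 1.75), PAG12 (-1.19 against 1.19), PDGFB (-0.98 against 1.43), APAF1 (-0.98 against 1.29), YWHAZ (-0.066 against 0.21) and RPS16 (-0.78 against 1.24).

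Among list medians close to 0, median centring reversed those of FGF and receptor tyrosine kinases (-0.0063), tight junctions (0.018), extracellular matrix (0.0075), oocyte genes (0.00042) and collagens (0.0011). The mean of probes reversed those of oocyte (0.0073) and steroid synthesis genes (-0.050). Keratins were reversed with no background correction (-0.0053, with an intensity trend too), the background mean (-0.00088) and the authors' values (-0.0011), and steroid synthesis genes with the background mean (-0.00024). Without control replicate a the medians of FGF and receptor tyrosine kinases (-0.023), oocyte genes (0.0074) and keratins (-0.0047) were reversed, and without control replicate b those of FGF and receptor tyrosine kinases (-0.018), oocyte genes (0.0082), steroid synthesis genes (-0.0022) and keratins (-0.0022). Without a MAPK-inhibited array these 4 medians were 0.0065, -0.014, 0.022 and 0.012, in the order of FGF and receptor tyrosine kinases, oocyte genes, steroid synthesis genes and keratins. Beyond the reversals, 8 of 49 list medians moved in size with median centring and 10 with the mean of probes. Without control replicate a 8 moved, and without control replicate b 17. Other settings moved fewer.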
